A study of Mus musculus with 12 samples.

Results

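RUNX1C KO PreMegEs were compared with WT PreMegEs by RNA-Seq. PreMegEs are progenitors of the bone marrow that give rise to megakaryocytes and red cells, and were sorted as Lin- Sca1- cKit+ CD41- CD16/32- CD150+ Endoglin- cells. The comparison used 6 of the 12 libraries, namely 3 of RUNX1C KO and 3 of WT PreMegEs, neither of which was divided by reporter expression. It covered 12784 of the 41128 genes in the count table, those with at least 1 CPM (counts scaled to the total of a library) in at least 3 of these 6 libraries.

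The study's general methods give a C57BL/6 background for its mouse lines and their WT littermates, and an age of 12 to 16 weeks. The cells of 3 mice were pooled for each library, so that no value belongs to a single animal. The WT group is labelled as wild type. The labels name the KO genotype only as a knockout of RUNX1C, and in the study the mouse without RUNX1C is homozygous for P1-GFP, an allele in which the P1 promoter of Runx1 drives GFP while transcription from P2 stays possible. That the KO libraries came from this line is not stated in the labels. In that line the allele is constitutive, so RUNX1C is missing in every cell of the mouse and not only in PreMegEs. P2+ and P2- PreMegEs, which appear below only as a reference, were separated by an hCD4 reporter of P2 from mice of the genotype Runx1 P1-GFP::P2-hCD4/+, again with 3 libraries of 3 pooled mice each.

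RUNX1 is the DNA-binding subunit of core binding factor and acts with its partner CBFB. The gene has a distal promoter, P1, which gives the RUNX1C protein, and a proximal promoter, P2, which gives RUNX1B. RUNX1 is required for the maturation of megakaryocytes and for platelet formation, while erythroid maturation depends on GATA1 and KLF1. The comparison asks what a progenitor at the branch point of both lineages expresses when RUNX1C is absent and RUNX1B can still be made.

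The promoters of Runx1 and of a megakaryocyte gene and an erythroid regulator described below are shown first, because P1 and P2 are the promoters of RUNX1C and RUNX1B and the other genes are examples from each lineage. Each sequence is a RefSeq window of 300 bases of GRCm38.p6, from 250 bases before to 50 bases after the transcription start, written 5′ to 3′ on the strand of the gene. Capitals mark TGTGGT, the letters searched for as a RUNX motif, and AGATAA, searched for as a GATA motif, on either strand, and no RUNX and GATA match overlapped in these windows. Runx1 P1 lies at chr16:92826025-92826324 and Runx1 P2 at chr16:92697280-92697579, both on the minus strand. Pf4 lies at chr5:90772185-90772484 and Klf1 at chr8:84901732-84902031, both on the plus strand.
Runx1 P1: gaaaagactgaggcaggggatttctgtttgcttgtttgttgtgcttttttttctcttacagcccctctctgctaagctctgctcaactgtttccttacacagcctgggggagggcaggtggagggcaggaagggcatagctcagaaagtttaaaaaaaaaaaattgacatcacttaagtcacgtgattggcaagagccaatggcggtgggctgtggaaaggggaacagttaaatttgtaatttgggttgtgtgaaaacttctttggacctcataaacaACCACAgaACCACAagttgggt
Runx1 P2: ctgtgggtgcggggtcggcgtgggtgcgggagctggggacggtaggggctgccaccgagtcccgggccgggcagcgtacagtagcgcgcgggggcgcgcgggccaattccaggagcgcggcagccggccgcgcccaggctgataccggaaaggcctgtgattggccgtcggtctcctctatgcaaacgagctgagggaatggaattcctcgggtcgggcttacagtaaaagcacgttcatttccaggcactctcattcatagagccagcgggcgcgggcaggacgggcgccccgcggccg
Pf4: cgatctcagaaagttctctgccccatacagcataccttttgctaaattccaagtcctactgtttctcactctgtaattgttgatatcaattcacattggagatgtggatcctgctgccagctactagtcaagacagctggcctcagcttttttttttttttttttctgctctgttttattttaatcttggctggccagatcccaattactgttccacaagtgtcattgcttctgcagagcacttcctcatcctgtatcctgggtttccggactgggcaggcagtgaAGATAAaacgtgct
Klf1: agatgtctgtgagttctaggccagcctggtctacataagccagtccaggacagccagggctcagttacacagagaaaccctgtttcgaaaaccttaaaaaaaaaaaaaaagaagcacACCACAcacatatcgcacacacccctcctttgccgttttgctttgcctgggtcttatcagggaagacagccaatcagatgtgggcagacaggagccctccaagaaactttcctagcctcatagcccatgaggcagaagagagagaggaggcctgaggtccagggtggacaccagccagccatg
The starts of P1 and P2 are 128745 bases apart. The P1 window held 2 RUNX matches, which begin 29 and 37 bases into the transcript, and had a GC content of 45.0% with 2 CpG dinucleotides. The P2 window held none and had a GC content of 69.0% with 35 CpG dinucleotides. The Pf4 window held 1 GATA match, and the Klf1 window held 1 RUNX match that begins 133 bases before the start.

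The 6 libraries held from 11044030 to 14127153 counts each, and the TMM factors that rescale these totals were between 0.985 and 1.01. A count of 0 still allows up to 3 counts, or 0.212 to 0.272 CPM depending on the library, by counting error alone. The libraries within each genotype differed by more than counting error, the ratio of chi-square to its degrees of freedom running from 4.61 to 11.2 over the pairs, so no library was a copy of another. The immediate early genes Fos, Fosb and Jun were highest in replicate 3 of both genotypes. Summed transcripts of the Y-linked genes Ddx3y, Eif2s3y, Kdm5d and Uty were between 66.4 and 178 CPM, highest in WT replicate 2, and every pool also held Xist, so the pools mixed both sexes. The sources used here do not say whether the KO libraries were prepared and sequenced together with the WT libraries, so a difference of batch and the difference of genotype cannot be told apart.

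Runx1 itself was checked first. Runx1 (ENSMUSG00000022952, chr16:92601466-92826149 of GRCm38) was counted at 365, 391 and 361 CPM in the WT libraries and 341, 383 and 358 CPM in the KO libraries. The groups overlapped, and the difference did not pass the test (log2 fold change -0.05 ± 0.06 (SE), adjusted p = 0.7). The table counts transcripts of both promoters as 1 gene, so these values neither show the loss of RUNX1C nor check the genotype. Cbfb, which encodes the partner subunit, was counted at 384, 407 and 360.4 CPM in the WT libraries and 311, 309 and 305 CPM in the KO libraries, so that every KO library lay below every WT library. It fell by a small amount (log2 fold change -0.31 ± 0.06 (SE), adjusted p = 0.0015). Runx2 and Runx3, the other RUNX genes, gave log2 fold changes of -0.15 and 0.12 and did not pass (adjusted p = 0.24 and 0.23), and neither did the corepressor gene Cbfa2t3 (log2 fold change 0.10 ± 0.06 (SE), adjusted p = 0.3). Of the 6 core binding factor genes tested, Cbfb was the only member that passed. For comparison, Runx1 was at 632 ± 23.6 CPM in P2+ and 209.9 ± 7.83 CPM in P2- PreMegEs.

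The transcriptomes of the genotypes differed in many genes, and the larger changes were mostly decreases. A gene is called here at an adjusted p under 0.05 in edgeR's quasi-likelihood test with Benjamini-Hochberg adjustment and a change of at least 2-fold. By this rule 436 genes (3.41% of the genes tested) were called, of which 95 (0.743%) were higher and 341 (2.67%) lower in KO PreMegEs. Without the minimum fold, 1910 genes (14.9%) passed the adjusted p, 790 (6.18%) higher and 1120 (8.76%) lower. In the following, rose and fell refer to this adjusted p alone.

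The median log2 fold change of all genes tested was -0.0029. Over all genes tested, 4002 (31.3%) had KO and WT libraries that did not overlap, and the same held for 429 of the 436 called genes. The called genes had a median change of 1.47 in size on the log2 scale, 83 of those lower and 15 of those higher changed by at least 4-fold, and 408 were protein-coding by the count table. Of the called genes, 268 had a mean under 10 CPM in the group where they were higher.

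**Figure D1:**
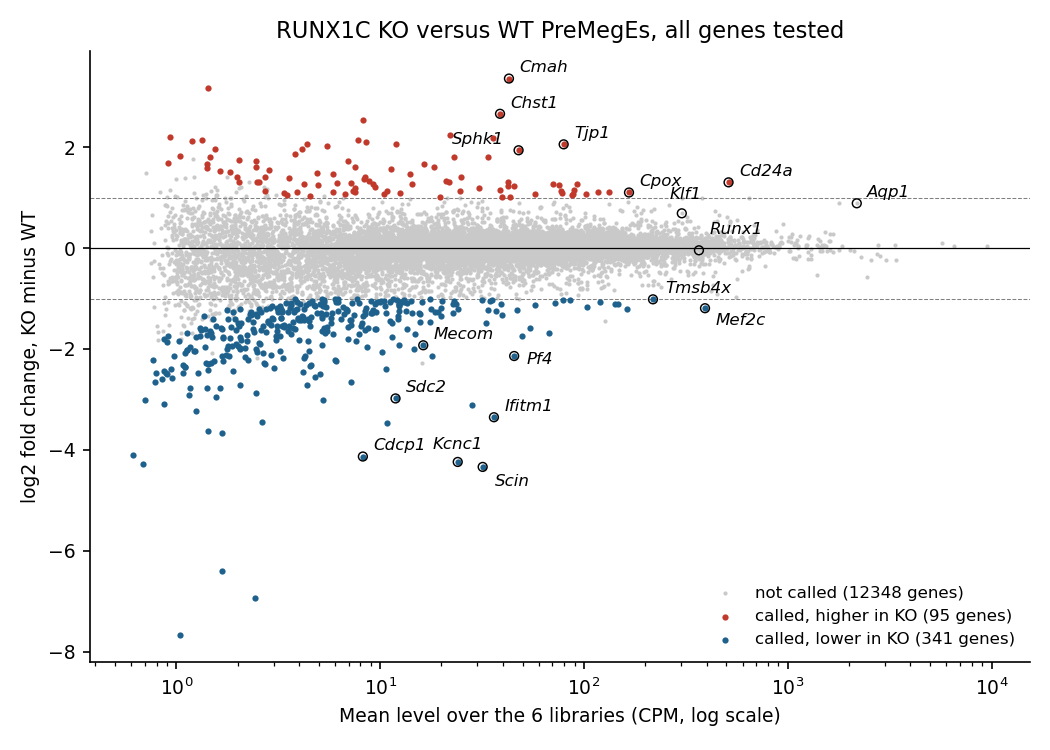
Log2 fold change of KO minus WT (vertical axis) against the mean level over the 6 libraries in CPM (horizontal axis, log scale) for the 12784 genes tested. Red points are the 95 genes called higher and blue points the 341 called lower in KO, dashed lines mark a 2-fold change, circles mark named genes, and the 3 lowest points are genes at or under 1 count in each KO library, whose plotted fold depends on the prior count of the fit.

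The genes with the largest changes were taken from called genes with a mean of at least 10 CPM in WT or KO. Their groups were also required not to overlap. The largest decreases among them left low levels in KO PreMegEs. Scin, which encodes the calcium-dependent actin-severing protein scinderin, was counted at 60.1, 67.6 and 54.4 CPM in the WT libraries and 3.94, 2.84 and 2.19 CPM in the KO libraries. All KO values were thus far below the lowest WT value (log2 fold change -4.34 ± 0.17 (SE), adjusted p = 1.1e-11). Kcnc1, which encodes a voltage-gated potassium channel, gave 50.2, 45.2 and 41.5 CPM in the WT libraries and 2.27, 2.23 and 2.73 CPM in the KO libraries, again without overlap (log2 fold change -4.24 ± 0.16 (SE), adjusted p = 1.1e-11). Cdcp1, a transmembrane glycoprotein, was at 15.9, 16.1 and 14.7 CPM in the WT libraries and 1.14, 1.03 and 0.456 CPM in the KO libraries (log2 fold change -4.13 ± 0.27 (SE), adjusted p = 1.2e-08).

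Ffar2, a receptor for short-chain fatty acids, fell from 19.8 ± 3.64 CPM in WT to 1.78 ± 0.468 CPM in KO PreMegEs (log2 fold change -3.46 ± 0.23 (SE), adjusted p = 1.7e-08, n = 3 each). Sdc2, the heparan sulfate proteoglycan syndecan-2, fell from 21.1 ± 2.69 CPM in WT to 2.66 ± 0.812 CPM in KO PreMegEs (log2 fold change -2.98 ± 0.21 (SE), adjusted p = 4.0e-08). Afap1, an actin filament binding protein, fell from 12.4 ± 0.884 CPM in WT to 1.96 ± 0.912 CPM in KO PreMegEs (log2 fold change -2.66 ± 0.27 (SE), adjusted p = 2.4e-06). Each of these had all 3 KO libraries below all WT libraries, as the choice of these genes required.

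The 15 largest decreases under these limits of level and overlap held further genes of varied function. Timp3, an inhibitor of metalloproteinases, had a log2 fold change of -2.15, and Serpine2, an inhibitor of serine proteases, one of -2.05. Bace1, the beta-secretase, changed by -2.40, the interleukin-18 receptor subunit Il18rap by -2.24, the basigin family member Emb by -1.99 and Maged1 by -1.96, all on the log2 scale. Adjusted p-values of these 6 genes lay between 2.9e-07 and 2.4e-04. Gm7676, also among the 15 (log2 fold change -3.12 ± 0.16 (SE), adjusted p = 7.7e-10), is protein-coding in the count table but a processed pseudogene in GENCODE, so its reads are uncertain.

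Of the called genes, 8 had at most 3 counts in each KO library. Apob, which encodes apolipoprotein B and was picked from these after its values were seen, had 0 counts in every KO library and 19, 41 and 19 counts in the WT libraries. It was at least 7.84-fold lower in KO, taking 3 counts per library as the limit. Cmklr1, a chemerin receptor picked in the same way, had 0, 0 and 1 counts in KO against 41, 39 and 52 in WT, and was at least 12.6-fold lower.

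Increases were fewer than decreases. The largest increases were chosen under the same limits of level and overlap as the largest decreases. Cmah, which encodes the enzyme that hydroxylates the sialic acid of CMP-N-acetylneuraminate, was counted at 7.32, 8.36 and 7.21 CPM in the WT libraries and 67.2, 80.0 and 87.1 CPM in the KO libraries and rose without overlap of the groups (log2 fold change 3.36 ± 0.13 (SE), adjusted p = 1.1e-11). Chst1, a carbohydrate sulfotransferase, gave 8.86, 10.5 and 12.4 CPM in the WT libraries and 58.4, 74.0 and 68.3 CPM in the KO libraries (log2 fold change 2.66 ± 0.13 (SE), adjusted p = 5.8e-10). Tjp1, the tight junction scaffold ZO-1, gave 23.2, 33.3 and 36.3 CPM in the WT libraries and 117, 142 and 125 CPM in the KO libraries (log2 fold change 2.05 ± 0.12 (SE), adjusted p = 5.7e-09). In all 3 genes the lowest KO value was above 3 times the highest WT value.

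Camsap2, a binding protein of microtubule minus ends, rose from 7.66 ± 0.412 CPM in WT to 36.4 ± 5.90 CPM in KO PreMegEs (log2 fold change 2.25 ± 0.15 (SE), adjusted p = 1.2e-08). Sphk1, the kinase that makes sphingosine 1-phosphate, rose from 19.9 ± 4.34 CPM in WT to 75.7 ± 11.5 CPM in KO PreMegEs (log2 fold change 1.94 ± 0.14 (SE), adjusted p = 4.6e-08). Slc38a5, an amino acid transporter, rose from 15.1 ± 0.756 CPM in WT to 52.4 ± 3.58 CPM in KO PreMegEs (log2 fold change 1.80 ± 0.11 (SE), adjusted p = 5.7e-09).

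The remaining genes of the 15 largest increases were the serine protease gene Hpn (log2 fold change 2.53), the phosphatase gene Ppm1e (2.19), Papss2, whose product makes the sulfate donor for sulfotransferases (2.14), Sh2d4a (2.10), the claudin gene Cldn13 (2.06), the complement receptor gene C5ar2 (1.80), the organic cation transporter gene Slc22a4 (1.73), the copper pump gene Atp7b (1.66) and the retinoid receptor gene Rxra (1.61). Their adjusted p-values were between 1.3e-08 and 1.9e-04.

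Among abundant transcripts the changes were smaller, with little spread between libraries. Cd24a, a surface glycoprotein of maturing blood cells, was the most abundant gene called higher and gave 305, 284 and 298 CPM in the WT libraries and 709, 742 and 735 CPM in the KO libraries (log2 fold change 1.30 ± 0.06 (SE), adjusted p = 1.1e-10). Mef2c, a transcription factor of megakaryocytes and lymphoid cells, was the most abundant gene called lower and gave 529.8, 585 and 524 CPM in the WT libraries and 241, 269 and 207 CPM in the KO libraries (log2 fold change -1.19 ± 0.08 (SE), adjusted p = 1.8e-08). Tmsb4x, which encodes the actin monomer binding thymosin beta 4, fell from 292 ± 7.28 CPM in WT to 144 ± 10.3 CPM in KO PreMegEs (log2 fold change -1.02 ± 0.07 (SE), adjusted p = 1.2e-08), and Nkg7, a granule membrane protein, fell from 227 ± 6.93 CPM in WT to 98.9 ± 1.6 CPM in KO PreMegEs (log2 fold change -1.20 ± 0.06 (SE), adjusted p = 7.7e-10). Per length of transcript, Tmsb4x was at 213 RPKM in WT and 105 RPKM in KO and Mef2c at 34.8 RPKM in WT and 15.2 RPKM in KO.

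The other abundant called genes were Cpox, Spire1, Chst15 and Abca3, which rose by between 1.07 and 1.12 on the log2 scale, and Ptpn14 (-1.11) and Itih5 (-1.10), which fell. Each of these 6 separated the genotypes without overlap. The strand setting of the counting is not given in the sources used here. Values are therefore uncertain for genes that overlap exons on the other strand, as do 127 of the called genes, among them Sphk1, Camsap2, Bace1, Timp3, Emb, Cpox, Chst15, Abca3 and Ptpn14. The same holds below for Selp, Plek, Cd9, Angpt1, Ank1, Tmod1, Slc25a37, Lyl1, Etv6, Meis1, Mecom, Hmga2, Hoxb2, Cd34, Mpo, Cebpa, Notch1, Irf7, Ccnd1, Bcl2 and Hk1, and above for Runx1, Runx2 and Cbfa2t3.

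**Figure D2:**
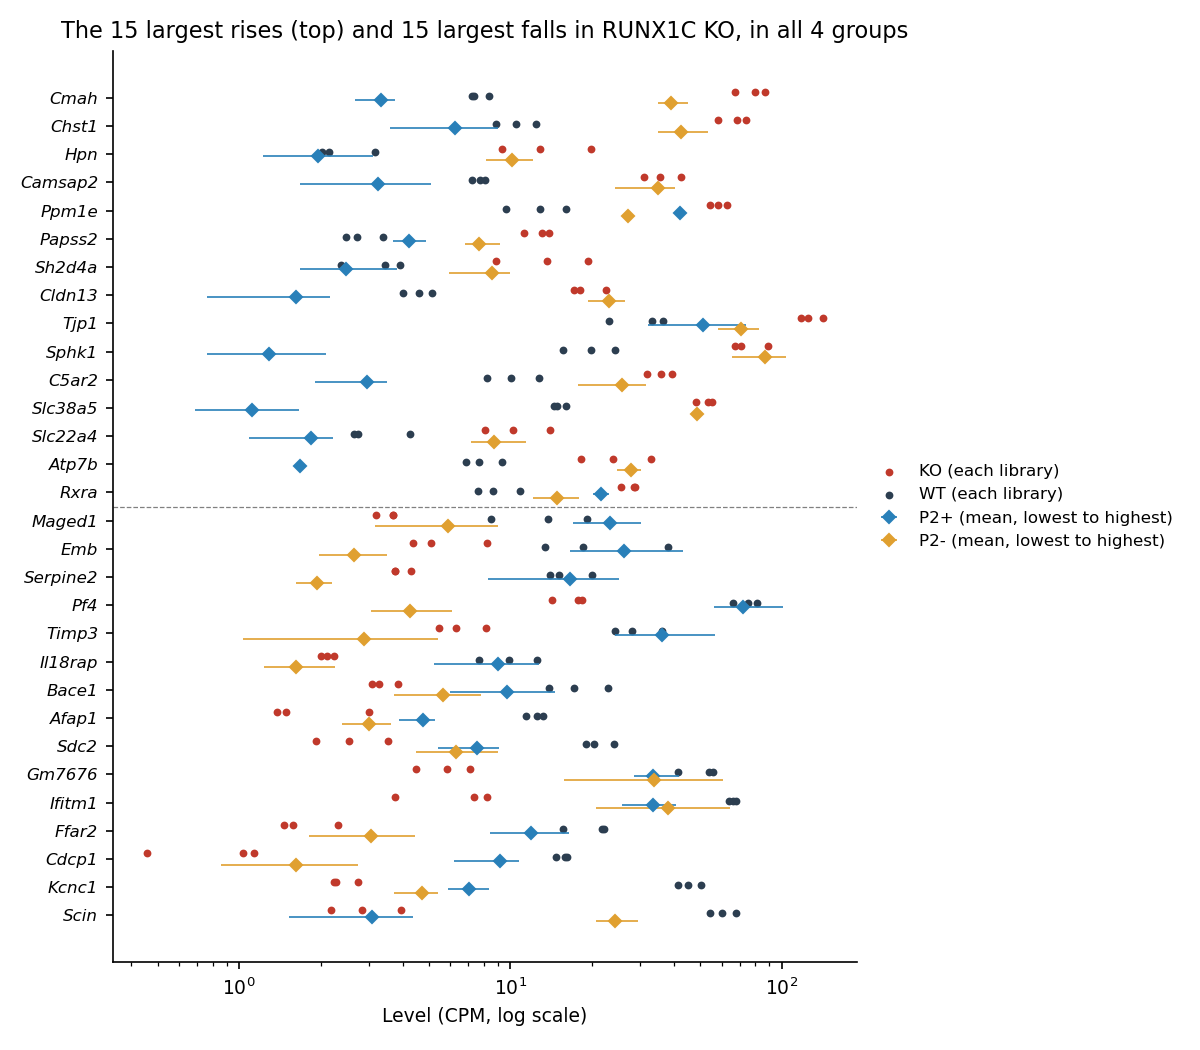
Level in CPM (horizontal axis, log scale) of the 15 genes with the largest increase and the 15 with the largest decrease in KO against WT among called genes that reached a mean of 10 CPM in WT or KO and whose groups did not overlap. Red and dark points are single KO and WT libraries, diamonds are the mean of 3 P2+ or P2- libraries and their lines run from the lowest to the highest library. KO and WT points do not overlap in any row, as the choice of genes requires, and every WT library is above all other libraries for Scin, Kcnc1, Cdcp1, Sdc2 and Afap1 and below them for Ppm1e, Papss2 and Rxra.

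Megakaryocyte genes were lower in KO PreMegEs on the whole, though not all of them. Of the 27 members tested of a list of megakaryocyte genes, 15 fell and 5 rose, and 4 were called lower and none higher, against 8.76% of all genes that fell and 6.18% that rose. These shares of all genes are the reference for every list below. Members of all lists were chosen with earlier results of these data known. The median log2 fold change of the megakaryocyte list was -0.45, beside -0.0029 for all genes tested. Without KO replicate 3 or WT replicate 1, 3 members rose. The summed level of the list ran from 4886 to 5375 CPM in the WT and 3515 to 3889 CPM in the KO libraries. In bulk RNA of a sorted population, fewer cells that express a gene and less RNA of it per cell cannot be told apart, which holds for every gene group given here.

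Pf4, which encodes the platelet factor 4 chemokine of alpha granules, had the largest decrease of the list. It was counted at 66.1, 81.2 and 75.1 CPM in the WT libraries and 17.8, 18.4 and 14.2 CPM in the KO libraries, with every KO value under 20 and every WT value over 60 CPM (log2 fold change -2.14 ± 0.12 (SE), adjusted p = 1.5e-09). Selp, the alpha granule membrane protein P-selectin, fell from 12.8 ± 3.89 CPM in WT to 4.13 ± 1.45 CPM in KO PreMegEs (log2 fold change -1.63 ± 0.27 (SE), adjusted p = 3.4e-04). Vwf, the von Willebrand factor stored in the same granules, gave 50.1, 66.0 and 66.1 CPM in the WT libraries and 27.9, 40.4 and 28.0 CPM in the KO libraries, and the groups did not overlap (log2 fold change -0.92 ± 0.14 (SE), adjusted p = 1.8e-04).

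The receptor genes did not move as 1 block. Gp1bb, a subunit of the platelet receptor for von Willebrand factor, gave 28.5, 25.6 and 32.0 CPM in the WT libraries and 11.8, 11.9 and 10.0 CPM in the KO libraries and fell (log2 fold change -1.35 ± 0.14 (SE), adjusted p = 2.7e-06). The other subunits of that receptor did not follow, since Gp9 and Gp1ba gave log2 fold changes of -0.24 and -0.14 without passing (adjusted p = 0.15 and 0.44) and Gp5 rose (log2 fold change 0.39 ± 0.07 (SE), adjusted p = 9.6e-04). Itgb3 and Itga2b, which encode the subunits of the fibrinogen receptor, both fell (log2 fold change -0.91 ± 0.13 (SE), adjusted p = 7.5e-05 for Itgb3, and log2 fold change -0.45 ± 0.08 (SE), adjusted p = 5.3e-04 for Itga2b). Itga2b is also CD41, the antigen by whose absence PreMegEs were gated.

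Plek, the pleckstrin of platelets, fell from 583 ± 50.9 CPM in WT to 312 ± 46.1 CPM in KO PreMegEs (log2 fold change -0.90 ± 0.09 (SE), adjusted p = 1.5e-06), and the tetraspanin gene Cd9 fell as well (log2 fold change -0.80 ± 0.08 (SE), adjusted p = 2.2e-06). Angpt1, which encodes angiopoietin-1, fell from 737 ± 17.3 CPM in WT to 375 ± 35.2 CPM in KO PreMegEs (log2 fold change -0.98 ± 0.07 (SE), adjusted p = 2.2e-08). In contrast Treml1, a receptor of alpha granules, gave 19.5, 25.0 and 25.5 CPM in the WT libraries and 36.1, 45.8 and 38.6 CPM in the KO libraries and rose (log2 fold change 0.79 ± 0.13 (SE), adjusted p = 3.2e-04). Ltbp1, a binding protein of latent TGF-beta, also rose (log2 fold change 0.73 ± 0.17 (SE), adjusted p = 0.0076), but did not pass in a fit of all 12 libraries (adjusted p = 0.065).

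Genes of platelet receptors and their signalling gave 17 members that fell and 1 that rose of 33 tested, with a median log2 fold change of -0.34. The largest decreases were those of the cyclic nucleotide phosphodiesterase gene Pde10a (-1.41), the thromboxane receptor gene Tbxa2r (-1.29) and the cGMP-dependent kinase gene Prkg1 (-1.04), which were called. Rap1b, a small GTPase of integrin activation, fell from 511 ± 58.7 CPM in WT to 368 ± 28.1 CPM in KO PreMegEs (log2 fold change -0.47 ± 0.08 (SE), adjusted p = 3.8e-04), and the kinase gene Syk fell by less (log2 fold change -0.33 ± 0.06 (SE), adjusted p = 0.0011). Gnaq, the G protein subunit that couples thrombin and ADP receptors, was the member that rose (log2 fold change 0.37 ± 0.06 (SE), adjusted p = 5.6e-04). Without KO replicate 3 the number that fell was 11.

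Erythroid genes were higher in KO PreMegEs. Of 28 members tested, 15 rose and 1 fell, 4 were called higher and 1 lower, and the median log2 fold change was 0.46. The summed level of the list was 3909 to 4458 CPM in the WT and 6379 to 7176 CPM in the KO libraries, so the ranges did not overlap. Aqp1, given below, made up a large part of these sums. Called higher were Sphk1, given above, and 3 genes of the red cell membrane, Rhd, Ank1 and Rhag.

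Ank1, the ankyrin that fixes the membrane skeleton, gave 37.0, 45.8 and 41.8 CPM in the WT libraries and 86.4, 113 and 99.8 CPM in the KO libraries (log2 fold change 1.27 ± 0.10 (SE), adjusted p = 1.7e-07). Rhag, the Rh-associated glycoprotein, gave 19.7, 20.5 and 15.8 CPM in the WT libraries and 42.1, 49.4 and 36.6 CPM in the KO libraries (log2 fold change 1.19 ± 0.13 (SE), adjusted p = 6.3e-06). Rhd, the Rh blood group gene, rose from a low level, 2.59 ± 0.577 CPM in WT, to 7.26 ± 0.50 CPM in KO PreMegEs (log2 fold change 1.49 ± 0.27 (SE), adjusted p = 8.6e-04). In each of these the KO values were all above the WT values.

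Aqp1, the water channel of red cells, was the most abundant member and gave 1397, 1663 and 1535 CPM in the WT libraries and 2635, 2901 and 2955 CPM in the KO libraries, a rise just under 2-fold (log2 fold change 0.89 ± 0.07 (SE), adjusted p = 1.7e-07). Ermap, an erythroid membrane protein, rose from 432 ± 60.9 CPM in WT to 859 ± 66.4 CPM in KO PreMegEs (log2 fold change 0.99 ± 0.09 (SE), adjusted p = 3.4e-07). Tfrc, the transferrin receptor, gave 132, 144 and 124 CPM in the WT libraries and 217, 213 and 233 CPM in the KO libraries (log2 fold change 0.73 ± 0.07 (SE), adjusted p = 1.1e-06). Epor, the erythropoietin receptor gene, rose from 78.2 ± 3.25 CPM in WT to 115 ± 8.95 CPM in KO PreMegEs (log2 fold change 0.55 ± 0.08 (SE), adjusted p = 6.6e-05).

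Other erythroid genes changed less or fell. Globin genes were at a low level or under the filter. Car2, carbonic anhydrase 2, rose by 0.47 (adjusted p = 1.6e-04), while Car1 gave 0.19 and did not pass (adjusted p = 0.064), both as log2 fold changes. In 4 of 19 alternatives Car1 did pass. Tmod1, which caps the actin filaments of the membrane skeleton, was the member that fell (log2 fold change -1.16 ± 0.22 (SE), adjusted p = 0.0014).

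Genes of heme synthesis and iron handling rose in 11 of 23 cases and fell in 1, with a median log2 fold change of 0.26. Cpox, the coproporphyrinogen oxidase of heme synthesis, gave 89.5, 114 and 114 CPM in the WT libraries and 209, 243 and 229 CPM in the KO libraries (log2 fold change 1.10 ± 0.09 (SE), adjusted p = 1.5e-07). Slc40a1, which encodes the iron exporter ferroportin, rose from 54.5 ± 6.80 CPM in WT to 131 ± 13.7 CPM in KO PreMegEs (log2 fold change 1.26 ± 0.09 (SE), adjusted p = 6.4e-08). The mitochondrial iron importer gene Slc25a37 rose by 0.31 on the log2 scale (adjusted p = 0.0077), while Fech, the last enzyme of the pathway, gave 0.19 and did not pass (adjusted p = 0.11). The member that fell was Hmox1, whose product breaks heme down (log2 fold change -1.64 ± 0.33 (SE), adjusted p = 0.0024). In a fit of all 12 libraries neither Hmox1 nor Slc25a37 passed (adjusted p = 0.08 and 0.12). Without replicate 3 of both genotypes, 7 members rose. Tfrc and Tfr2 are members of both this and the erythroid list.

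**Figure D3:**
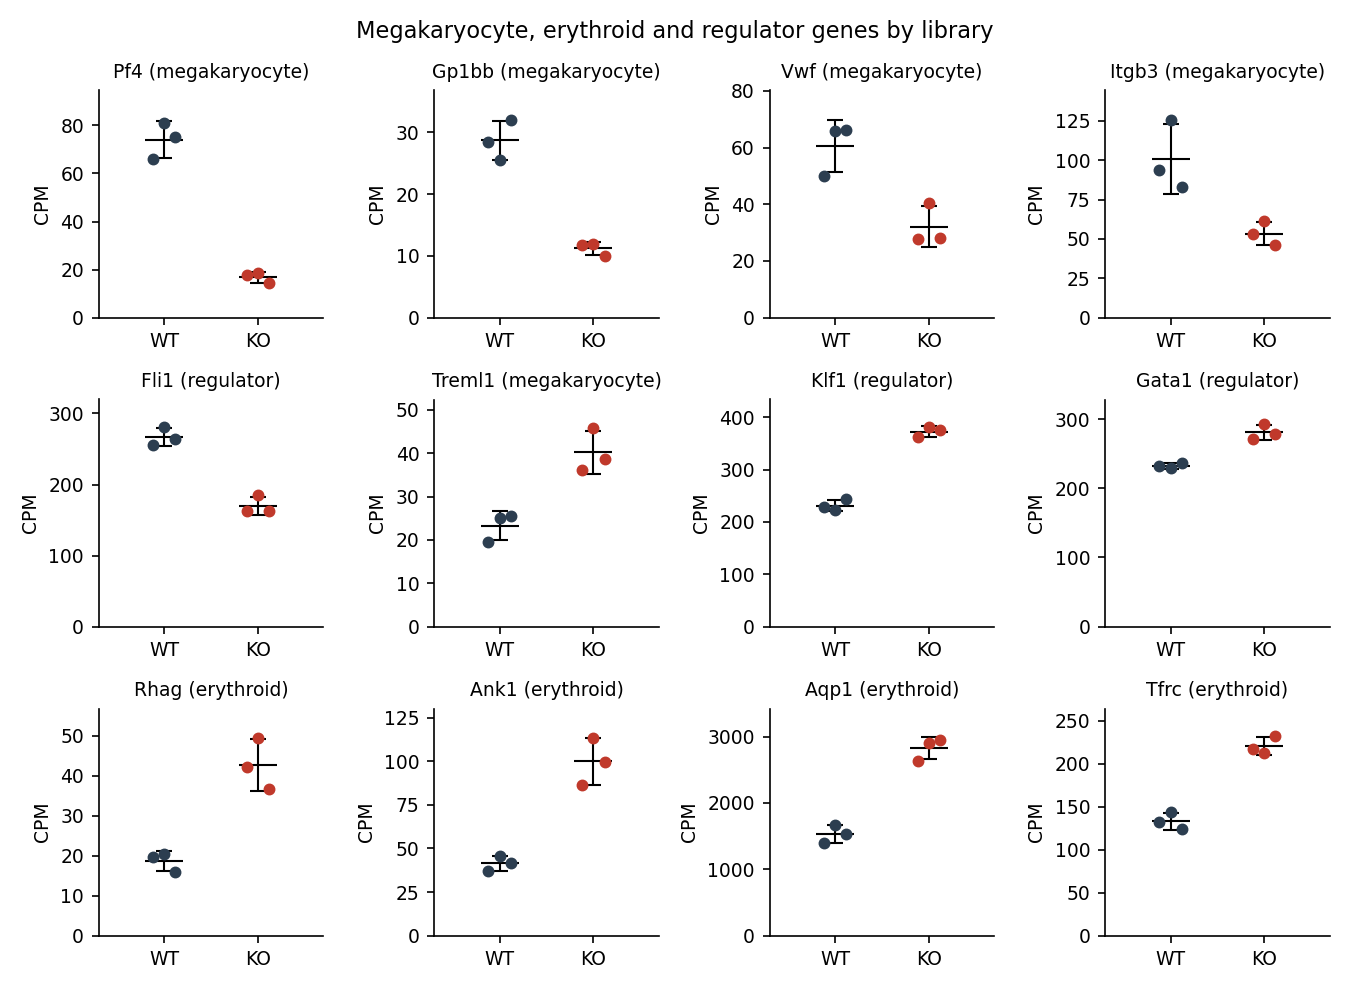
Level in CPM (vertical axes, each from 0) of 12 genes in the 3 WT (dark) and 3 KO (red) libraries. Points are libraries, the long bar is the mean and the whiskers are 1 SD of the 3 libraries. Pf4, Gp1bb, Vwf, Itgb3 and Fli1 are lower in every KO library, and Treml1, Klf1, Gata1, Rhag, Ank1, Aqp1 and Tfrc are higher in every KO library than in any WT library.

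Transcription factors of both lineages moved in both directions. Of 38 tested, 10 rose and 9 fell (26.3% and 23.7%, beside 6.18% and 8.76% of all genes tested), and the median log2 fold change was 0.05. Klf1, the main activator of erythroid genes, gave 229, 222 and 243 CPM in the WT libraries and 362, 381 and 376 CPM in the KO libraries (log2 fold change 0.69 ± 0.06 (SE), adjusted p = 3.8e-07). Gata1, required in both lineages, gave 232, 229 and 237 CPM in the WT libraries and 272, 292 and 278 CPM in the KO libraries, a small rise (log2 fold change 0.27 ± 0.06 (SE), adjusted p = 0.0041). Gfi1b, a repressor needed in both lineages, rose from 139 ± 5.33 CPM in WT to 219 ± 7.85 CPM in KO PreMegEs (log2 fold change 0.65 ± 0.06 (SE), adjusted p = 1.4e-06), and Lyl1, a relative of Tal1, rose from 113 ± 6.47 CPM in WT to 215 ± 4.91 CPM in KO PreMegEs (log2 fold change 0.92 ± 0.07 (SE), adjusted p = 3.6e-08).

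Fli1, an Ets factor of megakaryocyte genes, gave 256, 281 and 264 CPM in the WT libraries and 162, 185 and 162 CPM in the KO libraries and fell without overlap (log2 fold change -0.65 ± 0.07 (SE), adjusted p = 3.2e-06). Ets1 fell from a lower level, from 26.4 ± 2.36 CPM in WT to 10.9 ± 3.80 CPM in KO PreMegEs (log2 fold change -1.27 ± 0.19 (SE), adjusted p = 1.5e-04), and Etv6 by less (log2 fold change -0.40 ± 0.06 (SE), adjusted p = 1.5e-04). The homeobox cofactor gene Meis1 also fell (log2 fold change -0.65 ± 0.07 (SE), adjusted p = 4.4e-06). Tal1 and Zfpm1, partners of GATA1, gave log2 fold changes of 0.05 and -0.10 and did not pass (adjusted p = 0.59 and 0.33). No member of the list was called higher, and without KO replicate 3 the number that rose was 6.

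Of 28 genes that are described as RUNX1 targets in general knowledge, 10 fell and 5 rose, with a median log2 fold change of -0.24. These are 35.7% and 17.9%, beside 8.76% and 6.18% of all genes tested. The list shares Pf4, Klf1, Gfi1b and other genes with the lists above and is no independent count. Without KO replicate 2, KO replicate 3, WT replicate 1 or WT replicate 2 the number that rose was 3, and the median was -0.09 without WT replicate 1.

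Genes of stem cells and early progenitors were lower on the whole, with 11 that fell and 2 that rose of 24 and a median log2 fold change of -0.49. Mecom, a zinc finger factor of hematopoietic stem cells, gave 28.3, 23 and 26.0 CPM in the WT libraries and 7.17, 7.13 and 6.02 CPM in the KO libraries (log2 fold change -1.93 ± 0.15 (SE), adjusted p = 1.6e-07). Mycn fell from 162 ± 3.11 CPM in WT to 77.7 ± 13.1 CPM in KO PreMegEs (log2 fold change -1.06 ± 0.09 (SE), adjusted p = 3.6e-07), and the calcium channel gene Trpc6 and the transcription factor gene Hlf fell with log2 fold changes of -1.24 and -0.56 (adjusted p = 1.3e-04 and 2.1e-04). Hmga2, a chromatin protein of fetal stem cells, rose from a low level, from 5.05 ± 2.49 CPM in WT to 12.7 ± 1.70 CPM in KO PreMegEs (log2 fold change 1.33 ± 0.28 (SE), adjusted p = 0.0035). Of 10 Hox genes tested, 4 fell and none rose, among them Hoxa9 (log2 fold change -0.69 ± 0.09 (SE), adjusted p = 4.7e-05) and Hoxb2 (log2 fold change -2.16 ± 0.46 (SE), adjusted p = 0.0033).

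Several surface antigens by which blood progenitors are sorted differed within the gate. Slamf1, which encodes CD150, gave 37.4, 37.2 and 34.4 CPM in the WT libraries and 54.3, 57.9 and 65.6 CPM in the KO libraries and rose (log2 fold change 0.71 ± 0.10 (SE), adjusted p = 7.5e-05), and Cd48 rose as well (log2 fold change 0.56 ± 0.08 (SE), adjusted p = 1.5e-04). Cd34 gave 149.5, 124 and 121 CPM in the WT libraries and 90.4, 71.9 and 62.0 CPM in the KO libraries and fell (log2 fold change -0.81 ± 0.11 (SE), adjusted p = 6.1e-05). Of the 10 antigen genes tested, 3 rose and 4 fell, and 2 fell when WT replicate 2 or WT replicate 3 was left out.

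Markers of other lineages were measured as a check of the sorted population. Of 21 neutrophil and monocyte genes tested, 11 fell and none rose, with a median log2 fold change of -0.81, and their summed level was 824 to 1006 CPM in the WT and 734 to 774 CPM in the KO libraries. Mpo, the myeloperoxidase of granulocyte progenitors, was uneven between libraries, with 139, 51.3 and 53.3 CPM in the WT libraries and 44.5, 23.3 and 13.8 CPM in the KO libraries, and WT replicate 1 stood above the other WT libraries (log2 fold change -1.58 ± 0.35 (SE), adjusted p = 0.0041). In DESeq2, Mpo and the neutrophil elastase gene Elane no longer passed (adjusted p = 0.095 and 0.095), and the log2 fold change of Mpo was -0.94 without WT replicate 1. The list then gave 4 members that fell and 1 that rose, with a median of -0.36, and without KO replicate 3 it gave 5 that fell. Cebpa, the regulator of granulocyte genes, gave 30.6, 13.4 and 21.7 CPM in the WT libraries and 10.6, 8.25 and 8.11 CPM in the KO libraries (log2 fold change -1.29 ± 0.23 (SE), adjusted p = 8.2e-04), and Lyz2, lysozyme, fell from 97.2 ± 9.51 CPM in WT to 55.4 ± 5.78 CPM in KO PreMegEs (log2 fold change -0.81 ± 0.09 (SE), adjusted p = 9.1e-06).

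Lymphoid genes gave 5 members that fell and none that rose of 18 tested (median -0.66), and 4 of the 32 on the list had 0 counts in all 6 libraries. Their summed level, 341 to 363 CPM in the WT and 183 to 192 CPM in the KO libraries, came mostly from Nkg7, given above. Il7r, the interleukin-7 receptor, was low in all libraries and fell from 2.78 ± 0.813 CPM in WT to 0.355 ± 0.0990 CPM in KO PreMegEs (log2 fold change -2.95 ± 0.50 (SE), adjusted p = 5.0e-04), though not in a fit of all 12 libraries (adjusted p = 0.065). Without WT replicate 2 or WT replicate 3 the list gave 3 members that fell. Notch1 fell from 17.1 ± 1.92 CPM in WT to 7.75 ± 1.11 CPM in KO PreMegEs (log2 fold change -1.14 ± 0.17 (SE), adjusted p = 1.5e-04).

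Of 6 mast cell and basophil genes tested, 3 rose and none fell, and 4 of the 18 on the list had 0 counts in all 6 libraries. Il1rl1, the interleukin-33 receptor, gave 194, 227 and 189 CPM in the WT libraries and 434, 419.6 and 357 CPM in the KO libraries (log2 fold change 0.99 ± 0.08 (SE), adjusted p = 2.0e-07), and Cpa3, a mast cell protease, gave 15.2, 13.2 and 14.4 CPM in the WT libraries and 31.9, 28.1 and 24.7 CPM in the KO libraries (log2 fold change 0.98 ± 0.13 (SE), adjusted p = 6.1e-05). The part of cells of these lineages in the differences of other genes was not tested.

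Interferon-related genes split between families. Ifitm1, which encodes an interferon-induced transmembrane protein, gave 64.0, 67.7 and 66.1 CPM in the WT libraries and 8.22, 7.31 and 3.74 CPM in the KO libraries (log2 fold change -3.35 ± 0.17 (SE), adjusted p = 7.7e-10), and Ifitm2 and Ifitm3 fell with log2 fold changes of -0.44 and -0.59 (adjusted p = 0.0019 and 4.2e-04). These were the 3 Ifitm genes tested. Of 42 other interferon-stimulated genes, 10 rose and 1 fell (23.8% and 2.38%, beside 6.18% and 8.76% of all genes tested), with a median of 0.20. Oas2, an antiviral synthetase, rose from 8.43 ± 1.11 CPM in WT to 20.4 ± 5.02 CPM in KO PreMegEs (log2 fold change 1.27 ± 0.19 (SE), adjusted p = 1.2e-04), and the regulator gene Irf7 rose from 24.4 ± 3.57 CPM in WT to 42.2 ± 6.47 CPM in KO PreMegEs (log2 fold change 0.79 ± 0.13 (SE), adjusted p = 3.9e-04). Without KO replicate 3 only 3 of the list rose and its median was 0.11, and without WT replicate 1 it was 5.

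Immediate early genes, which respond to handling and to cytokines, gave 10 members that fell and none that rose of 25, but only 6 that fell without KO replicate 3 or WT replicate 3. Fos was at 0.837, 22.4 and 168 CPM in the WT libraries and 1.22, 6.88 and 87.6 CPM in the KO libraries, so that it followed the replicate more than the genotype and did not pass (log2 fold change -1.01 ± 0.99 (SE), adjusted p = 0.57). Over 19 alternatives Fos newly passed in 2 and reversed in 1. Egr1 gave 27.2, 42.8 and 99.1 CPM in the WT libraries and 24.8, 18.4 and 24.1 CPM in the KO libraries, where WT replicate 3 was highest (log2 fold change -1.33 ± 0.30 (SE), adjusted p = 0.0059). Without that library its log2 fold change was -0.64. Egr1 did not pass in 4 of 19 alternatives, among them DESeq2 (adjusted p = 0.093). Leaving out replicate 3 of both genotypes left 5 members of the list that fell and 272 called genes, and did not turn the median of the megakaryocyte (-0.49) or the erythroid list (0.47). The part of this difference in the results above was not tested further.

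Genes of growth and maintenance were counted in the same way. Of 46 cell cycle genes, 2 rose and 5 fell (4.35% and 10.9%, near the 6.18% and 8.76% of all genes tested), with a median log2 fold change of -0.07, and Ccnd1, cyclin D1, had the largest decrease (log2 fold change -0.62 ± 0.13 (SE), adjusted p = 0.0023). The number that fell was 2 without KO replicate 1, KO replicate 2, KO replicate 3 or WT replicate 3. Of 84 genes of cytoplasmic ribosomal proteins, 3 rose and 1 fell (3.57% and 1.19%). Of 85 nuclear genes of oxidative phosphorylation, 2 rose and 1 fell (2.35% and 1.18%). No replication-dependent histone gene and no mitochondrially encoded gene passed.

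Among 19 genes of survival and cell death, 3 rose and 1 fell (15.8% and 5.26%, beside 6.18% and 8.76% of all genes tested). Bcl2l11, which encodes the death promoting protein BIM, rose from 29.6 ± 5.82 CPM in WT to 48.7 ± 6.41 CPM in KO PreMegEs (log2 fold change 0.72 ± 0.13 (SE), adjusted p = 0.0011), and Bcl2, which opposes it, fell from 276 ± 27.2 CPM in WT to 196 ± 10.6 CPM in KO PreMegEs (log2 fold change -0.49 ± 0.07 (SE), adjusted p = 1.4e-04). In glycolysis, 5 of 16 genes fell and 1 rose (31.25% and 6.25%). Among them the pyruvate kinase gene Pkm fell (log2 fold change -0.79 ± 0.09 (SE), adjusted p = 9.2e-06), and the hexokinase gene Hk1 rose (log2 fold change 0.33 ± 0.06 (SE), adjusted p = 0.0015). Without KO replicate 1, KO replicate 2, WT replicate 2 or WT replicate 3 the number that fell was 3.

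For the remaining lists only counts are given. Rising and falling members numbered 2 and 5 of 20 genes of cell migration (10.0% and 25.0%, beside 6.18% and 8.76% of all genes tested), where the number that fell was 3 without KO replicate 1 or WT replicate 1. They numbered 2 and 1 of 18 cell cycle inhibitors and p53 targets (11.1% and 5.56%), 2 and 0 of 11 heat shock genes (18.2% and 0%), and 1 and 1 of 17 metallothionein and antioxidant genes (5.88% each). No member rose and 2 of 22 (9.09%) fell among MHC and antigen processing genes, 2 of 21 (9.52%) among cholesterol synthesis genes and 1 of 6 (16.7%) among imprinted growth genes. Of 5 sex-linked genes none passed. The small counts of these lists, and those of the ribosomal, oxidative phosphorylation, histone and mitochondrial lists, moved by up to 3 genes when single libraries were left out.

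**Figure D4:**
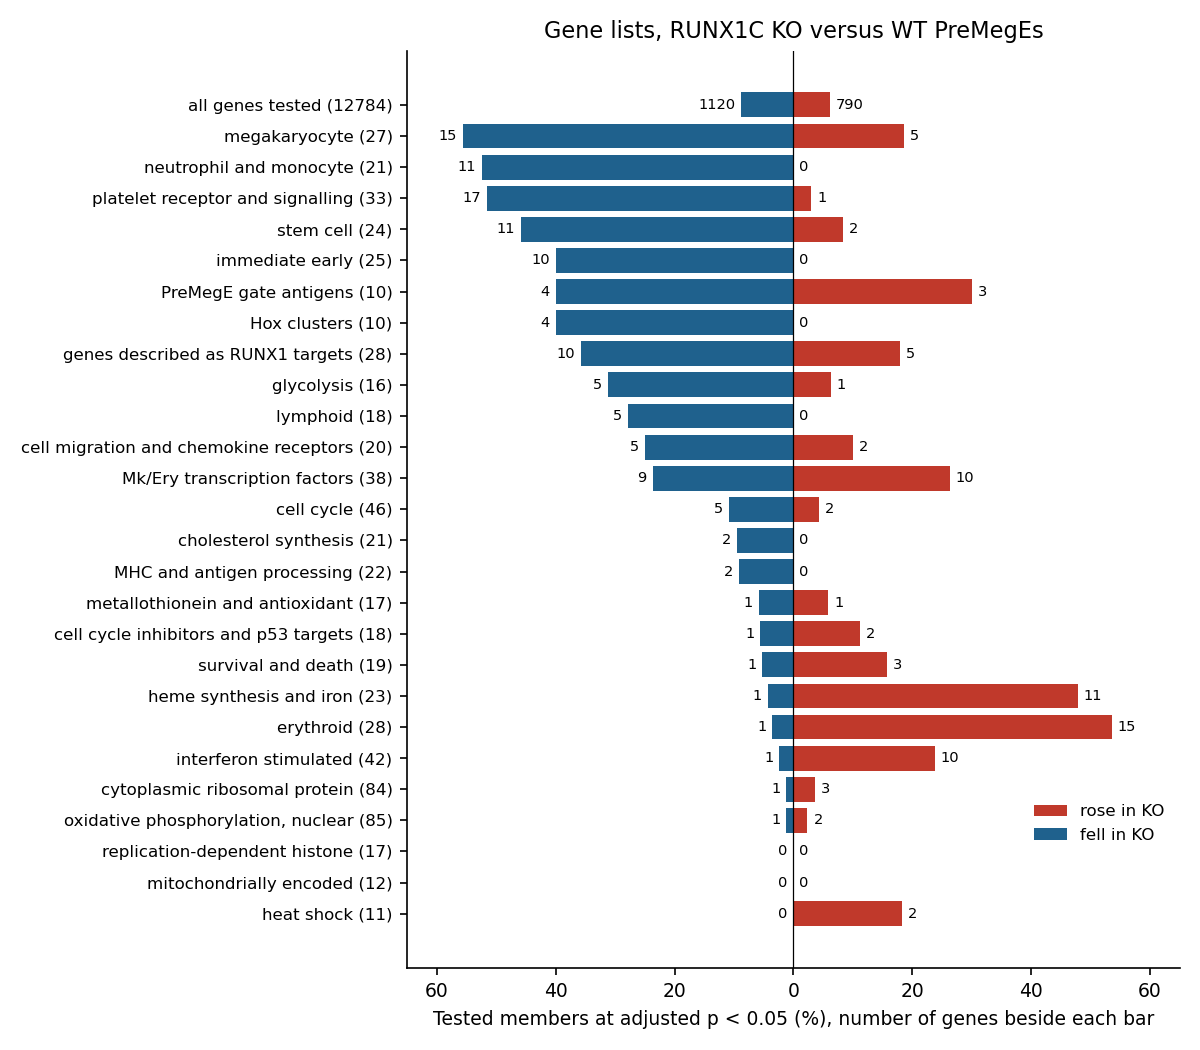
Share of the tested members of each gene list (in percent, horizontal axis) that rose (red, to the right) or fell (blue, to the left) in KO PreMegEs at an adjusted p under 0.05, for lists with at least 10 tested members. The number of genes stands beside each bar, the number tested in parentheses, and the top row gives all 12784 genes tested, of which 1120 fell and 790 rose. Erythroid and heme genes lie to the right, and megakaryocyte, platelet signalling, stem cell and neutrophil genes mostly to the left.

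P2+ and P2- PreMegEs give a reference for these changes from libraries that enter neither side of the KO and WT comparison. Of the 12836 genes tested between them, 1224 (9.54%) were called higher and 402 (3.13%) lower in P2+ PreMegEs. Genes called lower in KO were mostly of the first kind, since 212 of the 341 (62.2%) were called higher in P2+ PreMegEs, which is 17.3% of the 1224, and 9 were called lower. Of the 95 genes called higher in KO, 49 (51.6%) were called lower in P2+ PreMegEs, or 12.2% of the 402, and 6 were called higher.

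Taken from the other side, of the genes called higher in P2+ PreMegEs and tested here, 492 of 1149 fell and 15 rose in KO, with a median log2 fold change of -0.55. Without KO replicate 1, 9 of them rose, and without replicate 3 of both genotypes 312 fell. Of those called lower in P2+ PreMegEs, 186 of 395 rose and 18 fell, with a median of 0.41. Across the 12591 genes tested in both comparisons, the log2 fold changes of KO minus WT and of P2+ minus P2- had a Pearson correlation of -0.53, which describes genes that are not independent of each other.

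Each library was also placed on the axis from the mean P2- to the mean P2+ expression of 13272 genes, where P2- is 0% and P2+ is 100%. The WT libraries lay at 53.2%, 52.5% and 52.0% and the KO libraries at 26.0%, 24.5% and 19.7%. The groups did not overlap. The mean was 52.6% ± 0.587 (SD, n = 3) for WT and 23.4% ± 3.30 (SD, n = 3) for KO PreMegEs, a difference of -29.2 percentage points with an exact two-sided permutation p of 0.1, the smallest that 3 libraries against 3 allow.

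**Figure D5:**
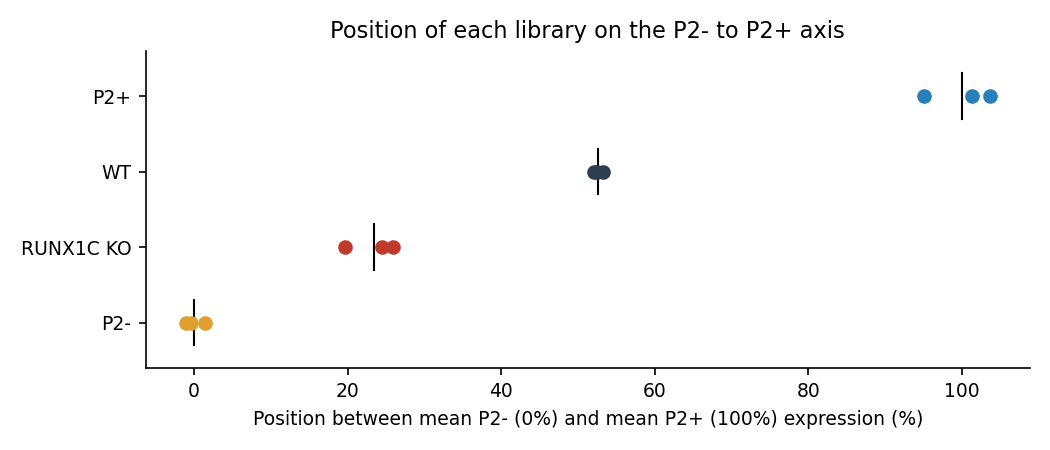
Position of each of the 12 libraries (points) on the axis from mean P2- (0%) to mean P2+ expression (100%), in percent, with the mean of each group as a line. The KO libraries lie between 19.7% and 26.0%, below the WT libraries at 52.0% to 53.2%, and the P2+ and P2- libraries define the axis.

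Single genes show both what follows this axis and what does not. Pf4 was at 72.0 ± 25.2 CPM in P2+ and 4.25 ± 1.64 CPM in P2- PreMegEs, and Mef2c at 696 ± 64.2 CPM in P2+ and 198 ± 1.37 CPM in P2- PreMegEs, so that the KO values given above lay toward those of P2- PreMegEs. Sphk1, at 1.28 ± 0.711 CPM in P2+ and 86.9 ± 19.4 CPM in P2- PreMegEs, and Slc38a5, at 1.12 ± 0.50 CPM in P2+ and 48.7 ± 2.28 CPM in P2- PreMegEs, rose in KO PreMegEs, likewise toward the P2- values. Ptpn14 went against the axis, since it was at 15.3 ± 3.96 CPM in P2+ and 204 ± 25.1 CPM in P2- PreMegEs and fell from 201 ± 12.1 CPM in WT to 93.1 ± 16.5 CPM in KO PreMegEs (log2 fold change -1.11 ± 0.10 (SE), adjusted p = 4.6e-07).

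Kcnc1, among the largest decreases, was at 7.05 ± 1.24 CPM in P2+ and 4.73 ± 0.891 CPM in P2- PreMegEs, both far below the WT libraries. Scin was at 3.08 ± 1.44 CPM in P2+ and 24.4 ± 4.56 CPM in P2- PreMegEs, so that it was also below WT in both, but its decrease in KO PreMegEs ran against the axis. In 45 of the 341 genes called lower (13.2%) every WT library was above all 9 other libraries, beside 144 of the 12784 genes tested (1.1%). Among the 95 genes called higher, every WT library was below all others in 11 (11.6%), beside 116 of all genes tested (0.907%). For these genes an altered Runx1 allele and any batch cannot be told apart.

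In 37 of the genes called lower (10.9%) and 23 of those called higher (24.2%) every KO library lay outside the range of all 9 other libraries on that side, beside 1.20% and 1.41% of the genes tested. Cmah was at 3.34 ± 0.587 CPM in P2+ and 39.1 ± 5.36 CPM in P2- PreMegEs, so that KO was above both, though P2- PreMegEs also lay above WT. Tjp1 was at 51.4 ± 21.1 CPM in P2+ and 70.9 ± 12.1 CPM in P2- PreMegEs and Ifitm1 at 33.5 ± 7.50 CPM in P2+ and 38.0 ± 23.4 CPM in P2- PreMegEs, so that KO PreMegEs were above both for Tjp1 and below both for Ifitm1. For Tjp1 the reference values were themselves higher than the mean of 30.9 ± 6.90 CPM in WT, as those of P2- PreMegEs were for Cmah. For Ifitm1 both reference means were below the mean of 65.9 ± 1.83 CPM in WT, though the P2- libraries ran from 20.6 to 64.6 CPM.

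The position of the changed genes was examined because the sequence that flanks a targeted allele is inherited with it. The part of the flanking sequence in the changes was not tested. Within 5 Mb of Runx1 on chromosome 16, 47 other genes were tested, of which 10 rose and 2 fell (25.5% passed, beside 14.9% of all genes) and 1 was called (2.13%, beside 3.41%). Of all genes tested, 6.18% rose and 8.76% fell, so the genes that passed near Runx1 were more often increases than those over all genes. The genes that rose include Itsn1, 0.681 Mb from Runx1 (log2 fold change 0.71 ± 0.10 (SE), adjusted p = 1.2e-04), and the interferon gamma receptor gene Ifngr2, 1.04 Mb away (log2 fold change 0.67 ± 0.14 (SE), adjusted p = 0.0031). Cbr1, 0.780 Mb away on the other side, fell (log2 fold change -0.64 ± 0.11 (SE), adjusted p = 5.3e-04). Within 20 Mb, 72 genes were tested and 4 were called, all lower. These were Gm26667, Jam2, Cyyr1 and A930006K02Rik, of which Jam2 was at 2.37, 5.03 and 4.41 CPM in the WT libraries and 0.962, 0.946 and 1.91 CPM in the KO libraries and did not pass without KO replicate 1, KO replicate 2 or WT replicate 2, with an adjusted p of up to 0.063. Cyyr1 did not pass without KO replicate 3, WT replicate 1 or WT replicate 2, and A930006K02Rik did not pass when any of the 6 libraries was left out. Over the chromosomes, between 2.25% and 5.07% of the genes tested were called, and chromosome 16, with 20 of 397 (5.04%), was second only to chromosome 10.

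RUNX and GATA motif matches were counted in the promoters of the called genes. RefSeq windows were found for 8753 of the genes tested and 307 of those called. TGTGGT was in 16.0% of the windows of genes called lower, in 12.6% of those of genes called higher and in 12.8% of those of all genes tested, beside 16.8% of all windows of this length. AGATAA was in 14.9% of the windows of genes called higher, in 7.67% of those called lower and in 6.38% of all tested, beside 11.2% of all windows. The core of the interferon-stimulated response element was in none of the 87 windows of genes called higher, in 3.51% of those called lower and in 3.06% of all tested, beside 3.44% of all windows. These are counts of letters on either strand and were not tested.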

How the data were processed

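PreMegEs of 4 groups of 3 libraries were sequenced, and the 3 KO and 3 WT libraries form the comparison. Per the labels and the study's methods, strand-specific poly(A) libraries were read as paired ends of 75 bases and aligned to GRCm38 by the authors with Bowtie2 (2.21 in the submitters' processing notes, which also name SAMtools 0.1.19, R 3.1.0 and edgeR 3.8.5). The authors deposited raw counts per Ensembl gene from featureCounts, with no normalization. The use of strand and the treatment of reads with several positions are not given in the sources used here.

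Genes that reached 1 CPM in 3 or more of the 6 libraries were tested in R 4.3.3 with the quasi-likelihood test of edgeR 4.0.16 after TMM scaling, and p-values were adjusted over all 12784 genes by Benjamini-Hochberg. CPM values of single genes in WT and KO use these scaled totals, and RPKM also divides by exonic length. CPM values of P2+ and P2- PreMegEs, summed levels of lists and summed Y-linked transcripts use a separate TMM scaling of all 12 libraries. Standard errors are the size of the log2 fold change divided by the square root of F. Groups follow the labels. Since each library pools 3 mice, p-values measure the spread between pools. P2+ and P2- PreMegEs were compared in a separate fit, and a position on the axis between them was taken for each library. The code was tested on simulated data.

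Named genes were the 15 with the largest change in each direction among called genes that reached a mean of 10 CPM in WT or KO and whose groups did not overlap, the 5 most abundant called genes in each direction, and members of the 31 gene lists. Itsn1, Ifngr2 and Cbr1 were named after their values were seen, for their position near Runx1. The members and lists were chosen with earlier results of these data known. Alternatives were other scalings, filters and tests, DESeq2 1.42.0, limma 3.58.1, a replicate block, all 12 libraries in 1 fit and each library left out. Leaving out replicate 3 of both genotypes and a covariate for Y-linked expression were chosen after seeing the data. Positions and overlaps come from GENCODE on GRCm38. Promoter windows come from RefSeq on GRCm38.p6.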

Additional observations from a re-analysis of the deposited data

How the results depend on the processing

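The number of called genes was between 414 and 522, beside 436, under the other scalings, no filter on low counts, DESeq2, limma-voom, the exact test of edgeR and the Y-linked covariate. It was 355 with all 12 libraries in 1 fit, where 1271 genes passed the adjusted p alone, beside 1910. A filter of at least 5 CPM gave 232 called genes (167 lower), a test against a 1.5-fold change 227 (158 lower), and no minimum of 2-fold 1910 (790 higher, 1120 lower). Without replicate 3 of both genotypes there were 272 (203 lower). Leaving out 1 library gave 336 to 394 called genes, 71 to 91 higher and 247 to 312 lower.

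With the replicate block 449 genes were called, 99 higher and 350 lower. The correlations of same-numbered libraries were 0.19, 0.02 and 0.09, and KO replicate 2 correlated best with WT replicate 3, so that not every same-numbered pair was over 0.1 and the samples were treated as sharing only a number, although Fos, Fosb and Jun were highest in replicate 3 of both genotypes. Runx1 did not pass under any alternative run. On the P2 axis the difference of KO and WT was between -25.8 and -30.5 percentage points under the alternatives. Of 2945 values for 157 named genes under alternatives, 2709 kept their direction and side of the threshold, 222 no longer passed, 12 newly passed and 2 reversed, namely Fos and Jun without WT replicate 3. Over the fits without 1 library the log2 fold change ran from -3.97 to 1.49 for Fos and from -3.03 to 0.31 for Jun. The causes were not tested. Of 145 named genes that passed, 121 passed in all 6 fits without 1 library. Depth limits genes of low level, since 3 counts came to 0.212 to 0.272 CPM.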
